A study of Homo sapiens with 24 samples.

Results

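Total RNA of OVCAR-3 cells given carboplatin alone was compared with total RNA of cells given DMSO, on 3 carboplatin arrays and 2 DMSO arrays out of the 24 arrays of the study. OVCAR-3 is an established line of high-grade serous ovarian cancer that came from a tumour with acquired platinum resistance. Carboplatin was used at 1 µM and was present for 5 h before harvest, and the DMSO cells received the solvent in place of the drug. By the methods, the medium of all cells was then replaced by medium with cycloheximide for 10 min before harvest. The other arms of the study received the mTORC1/2 inhibitor INK128, at 0.25 µM for 24 h, or INK128 with carboplatin. From these, 2 arrays of total RNA with INK128 entered the main test only to estimate the spread. Total RNA was an aliquot of the same lysates that were sedimented for polysomes, hybridised to Affymetrix Human Gene 2.0 ST arrays, and the deposited values are log2 signals, so that a difference of 1 is a doubling of signal. The labels name 4 carboplatin arrays of total RNA. The array labelled carboplatin 1, without a code, was left out because its values equal a column of combination total RNA in the study's own dataset. The 3 that remained are carboplatin 2, carboplatin 3 and a second array numbered 1 whose label carries a 3-digit code, and what the code stands for is not given in the sources used here. By the methods the treatments were repeated as independent biological replicates. The labels do not say which carboplatin and DMSO arrays share a set. The study's first dataset gives total and polysome columns shared numbers. There carboplatin 2 is numbered 1, carboplatin 3 is numbered 2 and the coded array 4, while the DMSO arrays are numbered 1 and 3. Whether a number is shared between treatments is not stated, so the p-values measure the spread between these arrays.

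Carboplatin forms adducts and crosslinks on DNA, which stall replication forks and are removed by nucleotide excision repair, the Fanconi anemia pathway and homologous recombination. Damage activates the kinases ATR and ATM, and in cells with functional p53 this transcription factor is stabilised and raises genes of cell cycle arrest, repair and apoptosis within hours. The question asked of this comparison was which mRNAs a short exposure to a low dose of the drug changed, p53 targets among them.

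No gene passed the test in either direction. Of 7442 tested genes, 0 were higher with carboplatin (0%) and 0 were lower (0%) at a limma p adjusted by Benjamini and Hochberg of under 0.05, and the smallest adjusted p was 0.993. At an unadjusted p under 0.05 there were 198 genes, where 372.1 are given by chance alone, and of these 69 were higher (0.927%) and 129 lower (1.73%). The median fitted change over all tested genes was -0.07 on the log2 scale and 36.3% of the fitted changes were above 0, so the list medians given here are set beside that value. Repeating the quantile normalization gave 113 higher and 98 lower, and centring each array on its median gave 140 higher and 83 lower, so the split between directions depended on the scaling. All 3 carboplatin arrays lay above both DMSO arrays for 541 genes (7.27%) and below both for 1163 genes (15.6%). The median signal over the tested genes was 8.23 on carboplatin 2, 8.36 on carboplatin 3 and 8.37 on the coded array. On the DMSO arrays it was 8.41 and 8.40. The part of the low median of carboplatin 2 in these counts was not tested. The median standard error of a change was 0.19, and the median upper limit of the 95% confidence interval was 0.37. In bulk RNA, fewer cells of a type and less RNA per cell cannot be told apart.

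The carboplatin arrays were not alike, and this bears on every value below. Across the tested genes the coded array correlated with the DMSO arrays at r = 0.992 and r = 0.988, close to the r = 0.992 between the DMSO arrays themselves. Its correlation with carboplatin 2 was 0.970 and with carboplatin 3 was 0.967, and carboplatin 2 and 3 correlated at 0.971. Carboplatin 3 was at least as close to DMSO, at 0.974 with both DMSO arrays, while carboplatin 2 was the farthest from them, at 0.965 and 0.962, so the uncoded arrays were not alike either. Genes share their array, so these correlations are descriptions only. The mean absolute difference from DMSO 1 was 0.147 for the coded array, 0.309 for carboplatin 2 and 0.241 for carboplatin 3. The values are therefore given for each array, and the results are also given without the coded array. Markers of the line were present, with 12 of 13 named markers past the filter on low signal, among them PAX8, the lineage transcription factor of the Müllerian epithelium, at a log2 signal of 11.91 to 12.06 on the 5 arrays. All 5 named markers of blood, endothelial, stromal and liver cells stayed below the filter, with mean levels of 2.72 to 5.42 over the 5 arrays compared.

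Of 44 p53 target genes in the list used here, 28 had a probeset annotated with that symbol alone, and 21 of these passed the filter on low signal. SESN1, EDA2R, SPATA18, TRIM22, RPS27L, CMBL and TP53I11 were below it. The 16 others had no such probeset, since probesets without a symbol or with several were not used. CDKN1A and MDM2, which encode the p53-induced cell cycle inhibitor and the ubiquitin ligase of p53, were not analysed here. None of the 21 targets passed the test, 10 had a fitted change above 0, and their median change was -0.04, beside -0.07 for all tested genes. The sign of this small median turned under other scalings, to 0.03 after repeated quantile normalization and 0.05 after centring, and it was 0.06 without the coded array. In the fit with all 3 carboplatin arrays the upper 95% limit of the change was under 1, a doubling, for each of the 21 genes. These limits ranged from -0.11 to 0.95. Without the coded array the change of ATF3 was 0.52 ± 0.25 (SE), so the bound covers the fit of 3 arrays only. One target, AEN, had all 3 carboplatin arrays above both DMSO arrays, beside 7.27% of tested genes, and one, APAF1, had all 3 below, beside 15.6%.

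AEN encodes an exonuclease that p53 induces during apoptosis. Its log2 signal was 7.53 on carboplatin 2, 7.47 on carboplatin 3 and 7.29 on the coded array, against 7.18 and 7.04 with DMSO. The arrays did not overlap, and the fitted change was 0.32 ± 0.16 (SE). SUSD6, a membrane protein of the p53 response, had the highest fitted change of the list at 0.44 ± 0.23. It measured 9.69 and 9.59 on carboplatin 2 and 3, and 9.03 on the coded array against 9.08 and 8.91 with DMSO. The coded array thus lay among the DMSO arrays. ATF3, a stress-induced transcription factor that is also an immediate early gene, followed the same order, with 6.78 and 6.93 on the uncoded carboplatin arrays, 6.42 on the coded array and 6.50 and 6.18 with DMSO.

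The lowest fitted change of the list was that of TP53INP1, which encodes a stress protein that promotes p53-dependent death and autophagy. Its signal was 7.39 on carboplatin 2, 7.84 on carboplatin 3 and 8.96 on the coded array, against 9.16 and 8.82 with DMSO. The fitted change was -0.93 ± 0.37 (SE), with a 95% interval of -1.75 to -0.11, and the adjusted p was 0.993. It was the only target at an unadjusted p under 0.05. APAF1, the scaffold of the apoptosome, measured 7.44, 7.92 and 8.03 with carboplatin in the order used above, and 8.16 and 8.21 with DMSO. Its change was -0.39 ± 0.20. Values near 0 were found for BAX and BBC3. BAX, which permeabilises mitochondria, changed by -0.04 ± 0.17, the BH3-only gene BBC3 by 0.05 ± 0.19, and PMAIP1, also BH3-only, by -0.39 ± 0.33. GDF15, a secreted stress cytokine, changed by 0.18 ± 0.18, SESN2, a sensor that restrains mTORC1, by -0.22 ± 0.28, and RRM2B, the p53-induced ribonucleotide reductase subunit, by -0.32 ± 0.29. The plot of p53 targets by array shows these values for all 21 genes.

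**Figure D1:**
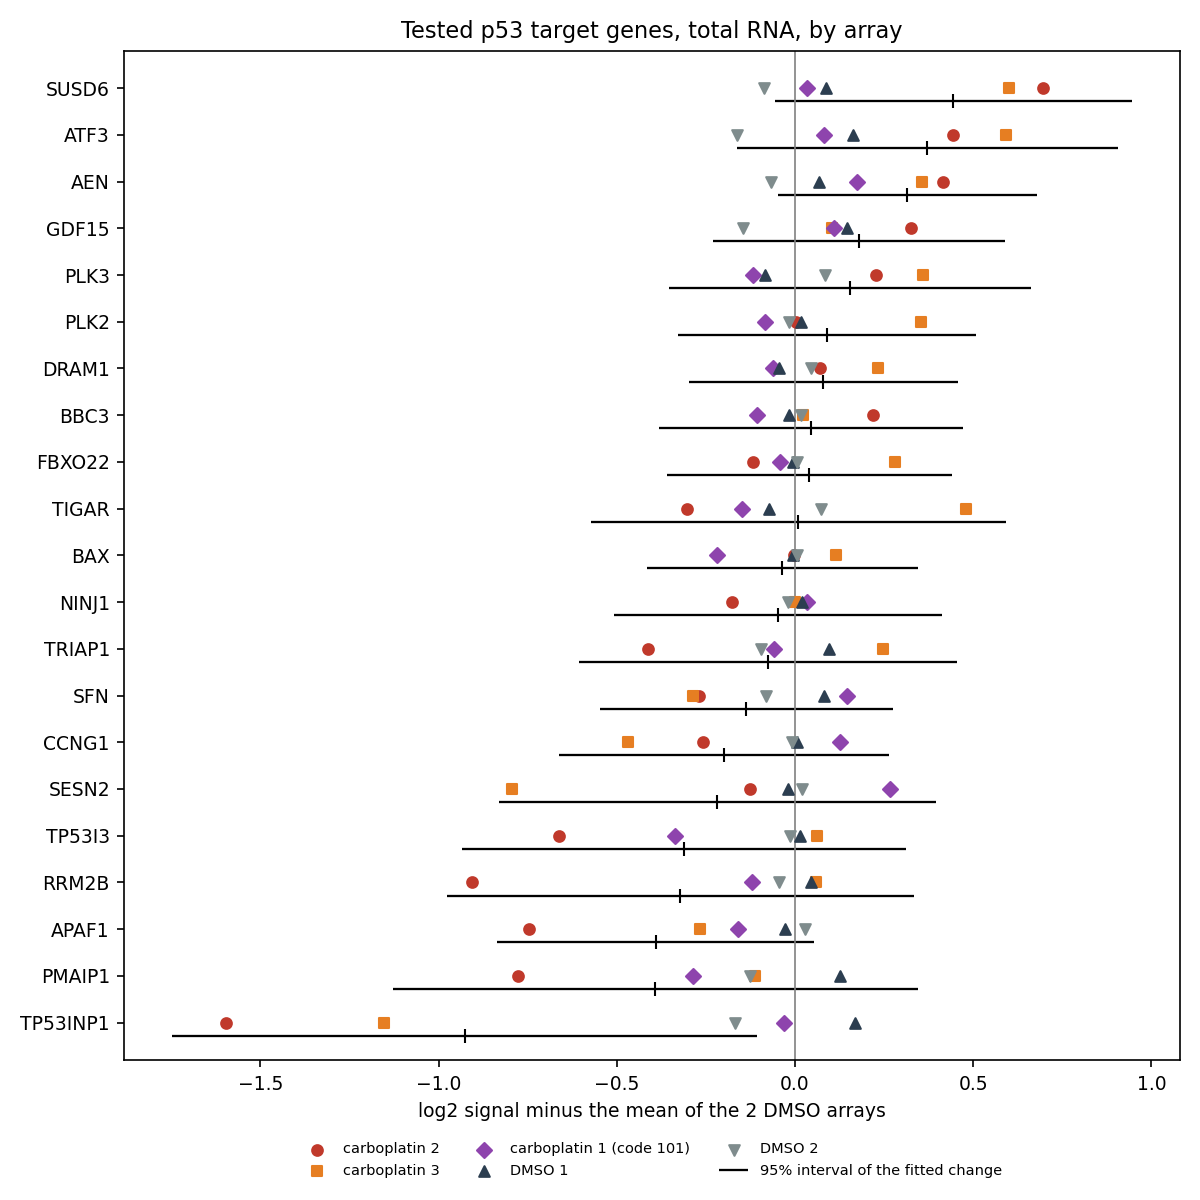
Tested p53 target genes in total RNA. Each symbol is 1 array, as log2 signal minus the mean of the 2 DMSO arrays, and the black line is the 95% confidence interval of the fitted change with a tick at the estimate. The intervals of 20 genes cross 0, and that of TP53INP1 runs from -1.75 to -0.11, with its coded array among the DMSO arrays.

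The regulators of p53 and the damage kinases lay close to the level of all genes. All 8 named regulators were tested, and their median change was -0.08, with the lowest value, -0.31 ± 0.21 (SE), for MDM4, an inhibitor of p53, and the highest, 0.09 ± 0.18, for CHEK1, the checkpoint kinase downstream of ATR. ATR itself changed by -0.04 ± 0.21. Centring turned the sign of this median, to 0.0036.

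DNA repair genes gave no call. The 14 tested genes of homologous recombination had a median of -0.11, which was -0.02 after centring and 0.21 on the uncoded polysome arrays described below, and 5 of them lay below both DMSO arrays on all 3 carboplatin arrays, beside 15.6% of all tested genes. RAD54B, a DNA translocase of recombination, changed by -0.31 ± 0.17, and MRE11, a nuclease of DNA ends, by -0.35 ± 0.21. The 7 Fanconi anemia and crosslink repair genes had a median of 0.10, with 4 fitted above 0, among them SLX4, the nuclease scaffold, at 0.20 ± 0.16. The 4 mismatch repair genes had a median of -0.28. Of 20 nucleotide excision repair genes only 2 had a probeset with a symbol of their own alone, so the pathway was measured in small part. Of 13 named genes of platinum transport and detoxification, 8 were tested, with a median of -0.05 that turned to 0.04 after centring. MT1F, a metallothionein that binds metals, measured 11.32, 11.04 and 11.06 with carboplatin against 10.90 and 10.55 with DMSO, a change of 0.42 ± 0.19. GSTM3, a glutathione transferase, measured 5.83, 6.20 and 6.71 against 6.96 and 6.91, a change of -0.69 ± 0.36.

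Cell cycle genes gave no call either. The 27 tested of 34 G1/S genes had a median change of -0.06, with every fitted change between -0.33 and 0.18, and the median turned to 0.03 after centring. CCNE1, the cyclin that drives S phase entry, changed by -0.12 ± 0.23 and CCND1 by 0.17 ± 0.17. The 23 tested of 30 G2/M genes had a median of -0.16, which stayed negative at -0.08 after centring, and 8 of them lay below both DMSO arrays, beside 15.6% of all tested genes. CDC25C, the phosphatase that activates CDK1 at mitosis, was the only one at an unadjusted p under 0.05. It measured 5.80, 6.39 and 6.62 with carboplatin and 6.96 and 7.19 with DMSO, a change of -0.81 ± 0.31. CCNB1 changed by -0.21 ± 0.29, and PLK1, a mitotic kinase, by -0.03 ± 0.16. The 13 tested apoptosis regulators had a median of -0.06, which turned to 0.03 after centring.

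The genes with the smallest p in each direction had changes of 0.53 to 1.16 in size, each with an adjusted p of 0.993 by limma. CYTOR, a long noncoding RNA, had the smallest p among higher genes. Its signal was 11.97 on carboplatin 2, 12.01 on carboplatin 3 and 11.74 on the coded array, against 11.19 and 11.40 with DMSO, and the change was 0.61 ± 0.17 (SE). The coded array was here on the side of the carboplatin arrays. The same held for LETM2, a mitochondrial inner membrane protein, with 8.48, 8.28 and 8.34 against 7.85 and 7.65, and for AVPI1, a vasopressin-induced gene, with 9.28, 9.33 and 9.23 against 8.88 and 8.63. DNMBP, an exchange factor for CDC42, changed by 0.71 ± 0.24, and its coded array, at 6.76, was nearer to DMSO, at 6.52 and 6.56, than to 7.54 and 7.47 on the uncoded arrays. Probesets of 4 microRNA hairpins, MIR4454, MIR3621, MIR891A and MIR4330, were also among the 10 higher genes, with changes of 0.64 to 0.81. None of the 4 had a fitted change above 0.20 in polysome RNA of the uncoded carboplatin arrays.

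Among lower genes the smallest p was that of OSTC, a subunit of the oligosaccharyltransferase. It measured 6.57, 6.78 and 6.54 with carboplatin and 7.20 and 7.31 with DMSO, a change of -0.62 ± 0.17. NUDT11, an inositol pyrophosphate hydrolase, measured 6.40, 6.85 and 6.63 against 7.13 and 7.86. The 3 carboplatin arrays of both genes lay together and apart from DMSO. DDIT4, a stress-induced inhibitor of mTORC1, was graded instead, with 6.95 and 7.46 on the uncoded arrays, 8.07 on the coded array and 8.61 and 8.38 with DMSO. Its change was -0.998 ± 0.29, with a 95% interval of -1.64 to -0.35. HSPA2, a member of the HSP70 family, was graded in the same way, from 5.93 and 6.28 to 7.30 and then 7.69 and 7.65, a change of -1.16 ± 0.35. MECOM, a transcription factor amplified in serous ovarian cancer, changed by -0.68 ± 0.20 and SOX17, a lineage factor of the same tissue, by -0.78 ± 0.32. They belong to the markers of the line, of which 12 were tested, with a median of -0.15 that was -0.06 after centring, and 3 were fitted above 0, up to 0.50 for CLDN3, a tight junction protein. PCNA-AS1 lies opposite PCNA, the replication clamp, which changed by -0.33 ± 0.28 beside -0.69 ± 0.21 for the antisense RNA, and whether the array separates the strands was not tested. At a p under 0.05 and a log2 change of at least 1, the thresholds of the study's methods with the p read as unadjusted, which the paper does not state, there were 10 genes, 6 higher and 4 lower. The higher ones were TNS4, FOSL1, IL7R, GLIS3-AS1, DKK1 and CXCL8, and the lower ones HSPA2, FDPS, RAB11FIP4 and STC1, and those of them in no list were named after their values were seen.

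**Figure D2:**
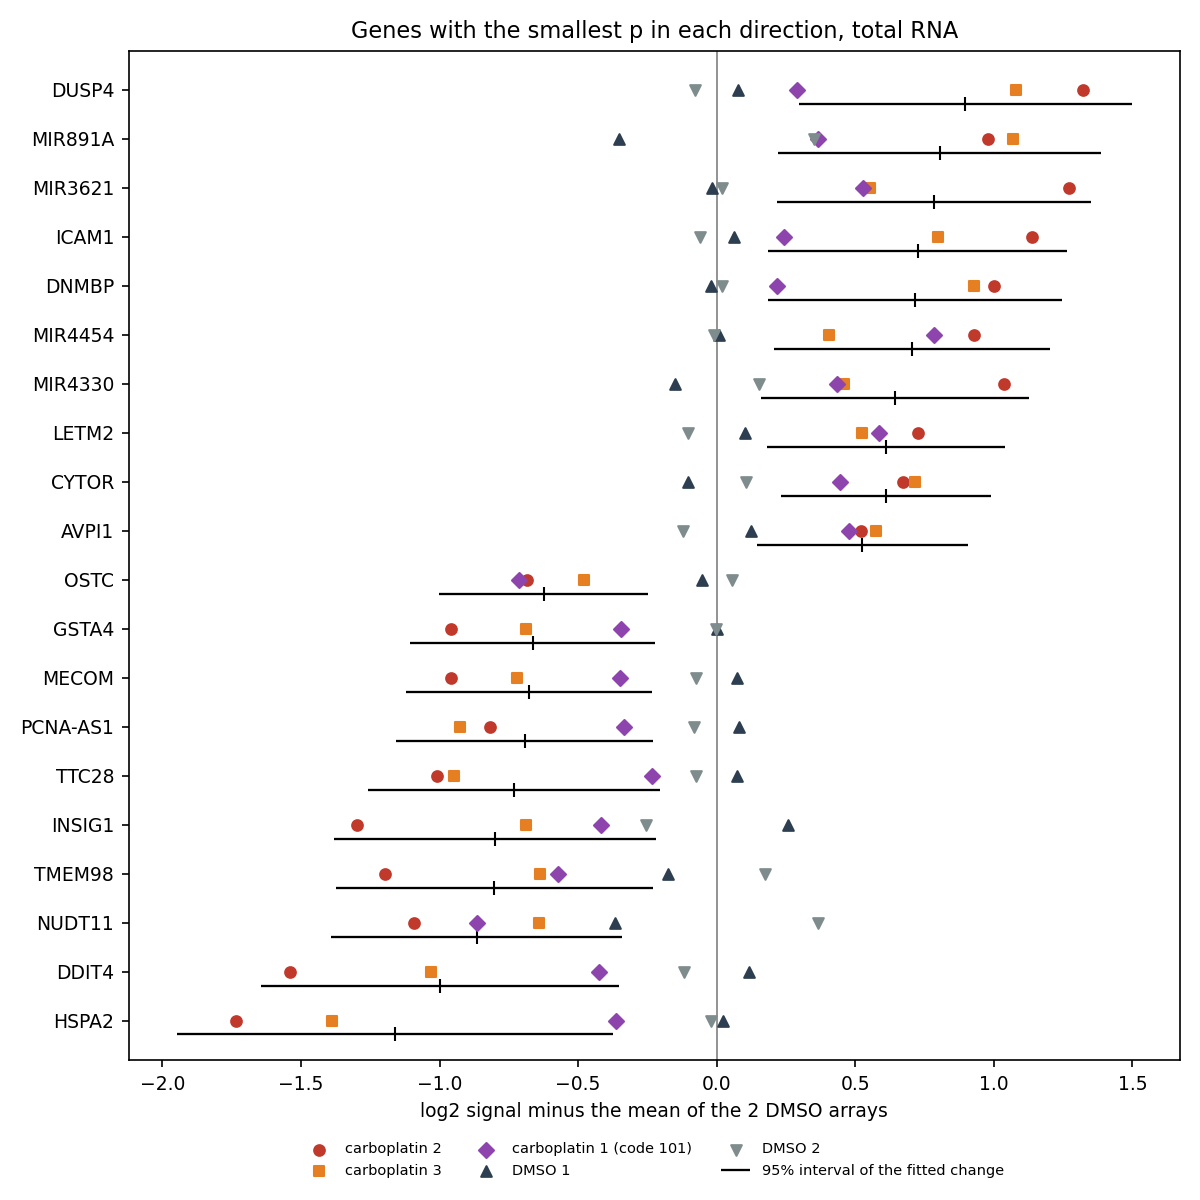
The 10 genes with the smallest limma p in each direction, in total RNA. Each symbol is 1 array, as log2 signal minus the mean of the 2 DMSO arrays, and the black line is the 95% confidence interval of the fitted change with a tick at the estimate. The coded array lies with the uncoded carboplatin arrays for OSTC and AVPI1 and between them and DMSO for DDIT4, HSPA2 and DUSP4.

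Immediate early genes are switched on within minutes of a growth factor or stress signal and encode transcription factors and feedback phosphatases. The 27 tested members had a median change of 0.22, beside -0.07 for all tested genes, and 23 were fitted above 0, beside 36.3% of all. At an unadjusted p under 0.05 there were 5 higher and 0 lower, beside 0.927% and 1.73% of all genes, and 6 lay above both DMSO arrays, beside 7.27%. The list had moved in earlier results of these data, so it is no independent evidence of its direction. DUSP4, a phosphatase that turns off ERK, measured 7.16 on carboplatin 2, 6.92 on carboplatin 3 and 6.13 on the coded array, against 5.92 and 5.76 with DMSO. Its change was 0.90 ± 0.27 (SE). FOSL1, an AP-1 subunit, measured 10.18 on carboplatin 2 but 8.80 on carboplatin 3 and 8.43 on the coded array, against 7.96 and 8.03, a change of 1.14 ± 0.45. SRF, the transcription factor of serum response, changed by 0.48 ± 0.19, SPRY4, an inhibitor of receptor tyrosine kinase signalling, by 0.58 ± 0.23 and KLF2 by 0.54 ± 0.23. FOS changed by -0.39 ± 0.37 and EGR1 by 0.47 ± 0.36, and for both the DMSO arrays were over 0.8 apart, with EGR1 at 11.50 and 10.30. Without the coded array the median was 0.36, and on the coded array alone it was -0.03. It also moved with the DMSO arrays, to 0.40 without DMSO 1 and 0.02 without DMSO 2, and it was 0.09 without carboplatin 3.

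NF-kB is a family of transcription factors that drives cytokines, adhesion molecules and its own subunits. The 10 tested targets had a median change of 0.41, 9 were fitted above 0, beside 36.3% of all tested genes, and 3 were higher at an unadjusted p under 0.05, beside 0.927%. ICAM1, an adhesion molecule for leukocytes, measured 10.53, 10.19 and 9.64 with carboplatin and 9.46 and 9.34 with DMSO, and was the only one of the 10 with all 3 arrays above both DMSO arrays, which is close to the 7.27% of all tested genes. Its change was 0.73 ± 0.24. NFKB2, a subunit gene, measured 9.63 and 9.48 on the uncoded arrays, 8.71 on the coded array and 8.81 and 8.55 with DMSO. CXCL8, the neutrophil chemokine interleukin-8, measured 9.58 and 9.60 on the uncoded arrays and 7.40 on the coded array, against 7.71 and 7.49. Its change of 1.26 ± 0.54 over 3 arrays therefore averaged levels that lay far apart. Not every target went this way, since CCL2 measured 8.81 and 8.54 on the uncoded arrays, 9.77 on the coded array and 9.24 and 9.66 with DMSO.

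The promoters of CXCL8 and ICAM1 are shown because these 2 NF-kB targets had the highest fitted changes of the list. Each is the RefSeq sequence of 250 bases before to 50 bases after the gene's start on GRCh38.p14, 5′ to 3′ on the strand of the gene. CXCL8 is at chr4:73740319-73740618 and ICAM1 at chr19:10270870-10271169, both on the plus strand. Capitals mark the NF-kB motif GGAATTTCC on either strand in both promoters and, in CXCL8, also the AP-1 motif TGANTCA on either strand, and the motifs do not overlap.
CXCL8: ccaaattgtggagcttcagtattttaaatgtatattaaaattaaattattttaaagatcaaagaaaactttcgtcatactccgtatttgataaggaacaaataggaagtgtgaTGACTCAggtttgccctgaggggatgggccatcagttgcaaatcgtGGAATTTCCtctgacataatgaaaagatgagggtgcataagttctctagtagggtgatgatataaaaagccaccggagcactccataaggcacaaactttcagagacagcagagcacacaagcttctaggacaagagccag
ICAM1: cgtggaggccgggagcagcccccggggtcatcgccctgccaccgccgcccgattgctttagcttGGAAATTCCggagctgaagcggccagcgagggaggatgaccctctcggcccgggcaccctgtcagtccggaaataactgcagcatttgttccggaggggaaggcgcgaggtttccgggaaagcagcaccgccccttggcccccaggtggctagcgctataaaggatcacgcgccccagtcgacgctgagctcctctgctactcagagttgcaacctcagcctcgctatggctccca
The NF-kB letters begin 91 bases before the start in CXCL8 and 186 bases before it in ICAM1, and the AP-1 letters of CXCL8 begin 137 bases before the start. Of 35116 promoters of this length, 0.461% held GGAATTTCC and 7.71% held TGANTCA. GGAATTTCC was searched as exact letters, which CXCL8 holds as printed and ICAM1 as the reverse complement. The other tested targets were not tallied, so the share is no measure of enrichment in the list. A match is a description of the sequence and no measure of binding.

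Genes of cholesterol synthesis are raised together by SREBP when sterols are low. The 13 tested members had a median change of -0.28, and 2 were fitted above 0, beside 36.3% of all tested genes. Below both DMSO arrays lay 7, beside 15.6% of tested genes. At an unadjusted p under 0.05 there were 4 lower, beside 1.73%, and 0 higher. FDPS, the farnesyl diphosphate synthase, measured 5.66 on carboplatin 2, 6.16 on carboplatin 3 and 7.60 on the coded array, against 7.87 and 7.86 with DMSO, a change of -1.39 ± 0.45 (SE). IDI1, which makes the substrate of FDPS, measured 6.59, 7.30 and 6.90 against 7.74 and 7.51, so its coded array lay between the uncoded ones. INSIG1, an SREBP target that retains SREBP in the endoplasmic reticulum, changed by -0.80 ± 0.26, and HMGCS1, the HMG-CoA synthase, by -0.48 ± 0.18. DHCR7 and NSDHL, of the late steps, changed by -0.06 ± 0.20 and -0.10 ± 0.17. The list median was -0.20 after centring and -0.39 without the coded array. The 12 tested genes of ATF4 and the unfolded protein response had a median of -0.25, with 1 member higher and 1 lower at an unadjusted p under 0.05. The lower one was DDIT4, given above. The higher one was ATF5, a stress-induced transcription factor, which measured 8.80, 8.54 and 8.05 with carboplatin and 7.99 and 7.84 with DMSO, so that all 3 arrays lay above both DMSO arrays, and its change was 0.55 ± 0.23. On the uncoded polysome arrays, described below, ATF5 was higher by 0.59 (adjusted p = 0.030 by limma). XBP1, a transcription factor of that response, measured 8.96 and 9.57 on the uncoded arrays, 10.21 on the coded array and 10.15 and 10.24 with DMSO.

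All 7 tested heat shock genes and chaperones were fitted below 0, where 36.3% of all tested genes were fitted above 0. Their median was -0.28 over 3 arrays, -0.45 without the coded array and 0.06 on the coded array alone. None passed at an unadjusted p under 0.05 with all 3 arrays. HSPA1A, the inducible HSP70, measured 10.13 and 10.00 on the uncoded arrays, 11.91 on the coded array and 11.66 and 11.78 with DMSO. HSPA1B is a near-identical copy whose probes can share signal with HSPA1A, and it measured 9.84 on both uncoded arrays, 11.77 on the coded array and 11.49 and 11.63 with DMSO. For both genes the coded array was above DMSO and the uncoded arrays were below. HSPB1, a small heat shock protein, measured 13.38 to 13.55 on all 5 arrays. The 16 tested ribosomal proteins had a median of -0.12, the 6 tested NRF2 targets -0.14, the 9 tested hypoxia targets -0.14 and the 4 tested interferon-stimulated genes -0.31, with 0 called in each. None of the listed replication-dependent histones had a probeset with its symbol alone.

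The promoters of FDPS and HSPA1A are given in the same form. FDPS had the lowest fitted change of its list, and HSPA1A, at -1.04, was lowest in its own after its copy HSPA1B. They do not stand for the other members of these groups. FDPS is at chr1:155308616-155308915 and HSPA1A at chr6:31815293-31815592, both on the plus strand of GRCh38.p14 and from RefSeq. Capitals mark CCAAT on either strand in FDPS, the box bound by NF-Y, a partner of SREBP, and GAANNTTC in HSPA1A, the core of a heat shock element.
FDPS: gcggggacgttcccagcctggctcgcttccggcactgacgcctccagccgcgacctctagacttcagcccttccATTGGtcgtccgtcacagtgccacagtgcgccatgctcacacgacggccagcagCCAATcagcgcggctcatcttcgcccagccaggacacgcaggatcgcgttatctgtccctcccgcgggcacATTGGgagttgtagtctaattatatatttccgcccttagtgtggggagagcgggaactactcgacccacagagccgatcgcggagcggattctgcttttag
HSPA1A: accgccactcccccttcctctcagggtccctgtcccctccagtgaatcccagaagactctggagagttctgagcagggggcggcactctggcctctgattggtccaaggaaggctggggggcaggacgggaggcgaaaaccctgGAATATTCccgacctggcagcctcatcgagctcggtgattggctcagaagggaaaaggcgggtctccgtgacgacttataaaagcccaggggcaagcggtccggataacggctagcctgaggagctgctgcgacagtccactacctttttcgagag
The FDPS matches begin 176, 122 and 51 bases before the start, and the HSPA1A match begins 106 bases before it. CCAAT was held by 34.6% and GAANNTTC by 6.77% of the 35116 promoters, so the first is a common motif.

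Leaving out the coded array changed the count of calls. The reading of the arrays by code was added after the data were examined. With carboplatin 2 and 3 alone, 3 genes were higher (0.0403%) and 8 were lower (0.107%) at a limma adjusted p under 0.05, and at an unadjusted p there were 205 higher (2.75%) and 434 lower (5.83%). The coded array is 1 array, so a test of it takes the spread from the other groups and assumes that it varies as they do, and the low number of calls it gives says nothing of how it differs. Against DMSO it gave 0 calls and 14 genes at an unadjusted p under 0.05. With the same assumption the difference between the uncoded arrays and the coded one passed for CXCL8 alone, with an adjusted p of 0.035, and 451 genes were at an unadjusted p under 0.05. The split was made after this array was seen to lie near DMSO. Genes called here that belong to no list were named after their values were seen.

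The 3 higher genes were DKK1, CXCL8 and IL7R. DKK1, a secreted Wnt antagonist, measured 9.71 and 9.74 on carboplatin 2 and 3, 7.20 on the coded array and 7.63 and 7.12 with DMSO, and was higher by 2.35 ± 0.26 (SE, adjusted p = 0.023 by limma) without the coded array. CXCL8 was higher by 1.99 ± 0.18 (adjusted p = 0.015). IL7R, the interleukin-7 receptor, measured 7.97 and 7.78, 6.32 on the coded array and 6.44 and 6.24 with DMSO, and was higher by 1.54 ± 0.19. In each of the 3 the coded array lay within or below the DMSO arrays. With all 3 carboplatin arrays the changes were 1.51, 1.26 and 1.02, each with an adjusted p of 0.993.

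The 8 lower genes were STC1, HSPA1B, HUNK, HSPA1A, GSTA2, FDPS, SERP1 and TMTC1. STC1, a secreted glycoprotein hormone, measured 5.33 and 5.77 on carboplatin 2 and 3, 7.55 on the coded array and 7.69 and 7.49 with DMSO, and was lower without the coded array, with a change of -2.05 ± 0.22. FDPS changed by -1.95 ± 0.26, HSPA1B by -1.72 ± 0.21 and HSPA1A by -1.65 ± 0.21. HUNK, a kinase of the AMPK family, measured 7.12 and 7.23, 8.94 on the coded array and 8.53 and 8.82 with DMSO. GSTA2, a glutathione transferase, changed by -1.43 ± 0.18, SERP1, a stress-associated protein of the endoplasmic reticulum, by -1.37 ± 0.19, and TMTC1, an O-mannosyltransferase there, by -1.28 ± 0.18. FDPS was the only one of the 11 genes whose 3 carboplatin arrays all lay on 1 side of DMSO.

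**Figure D3:**
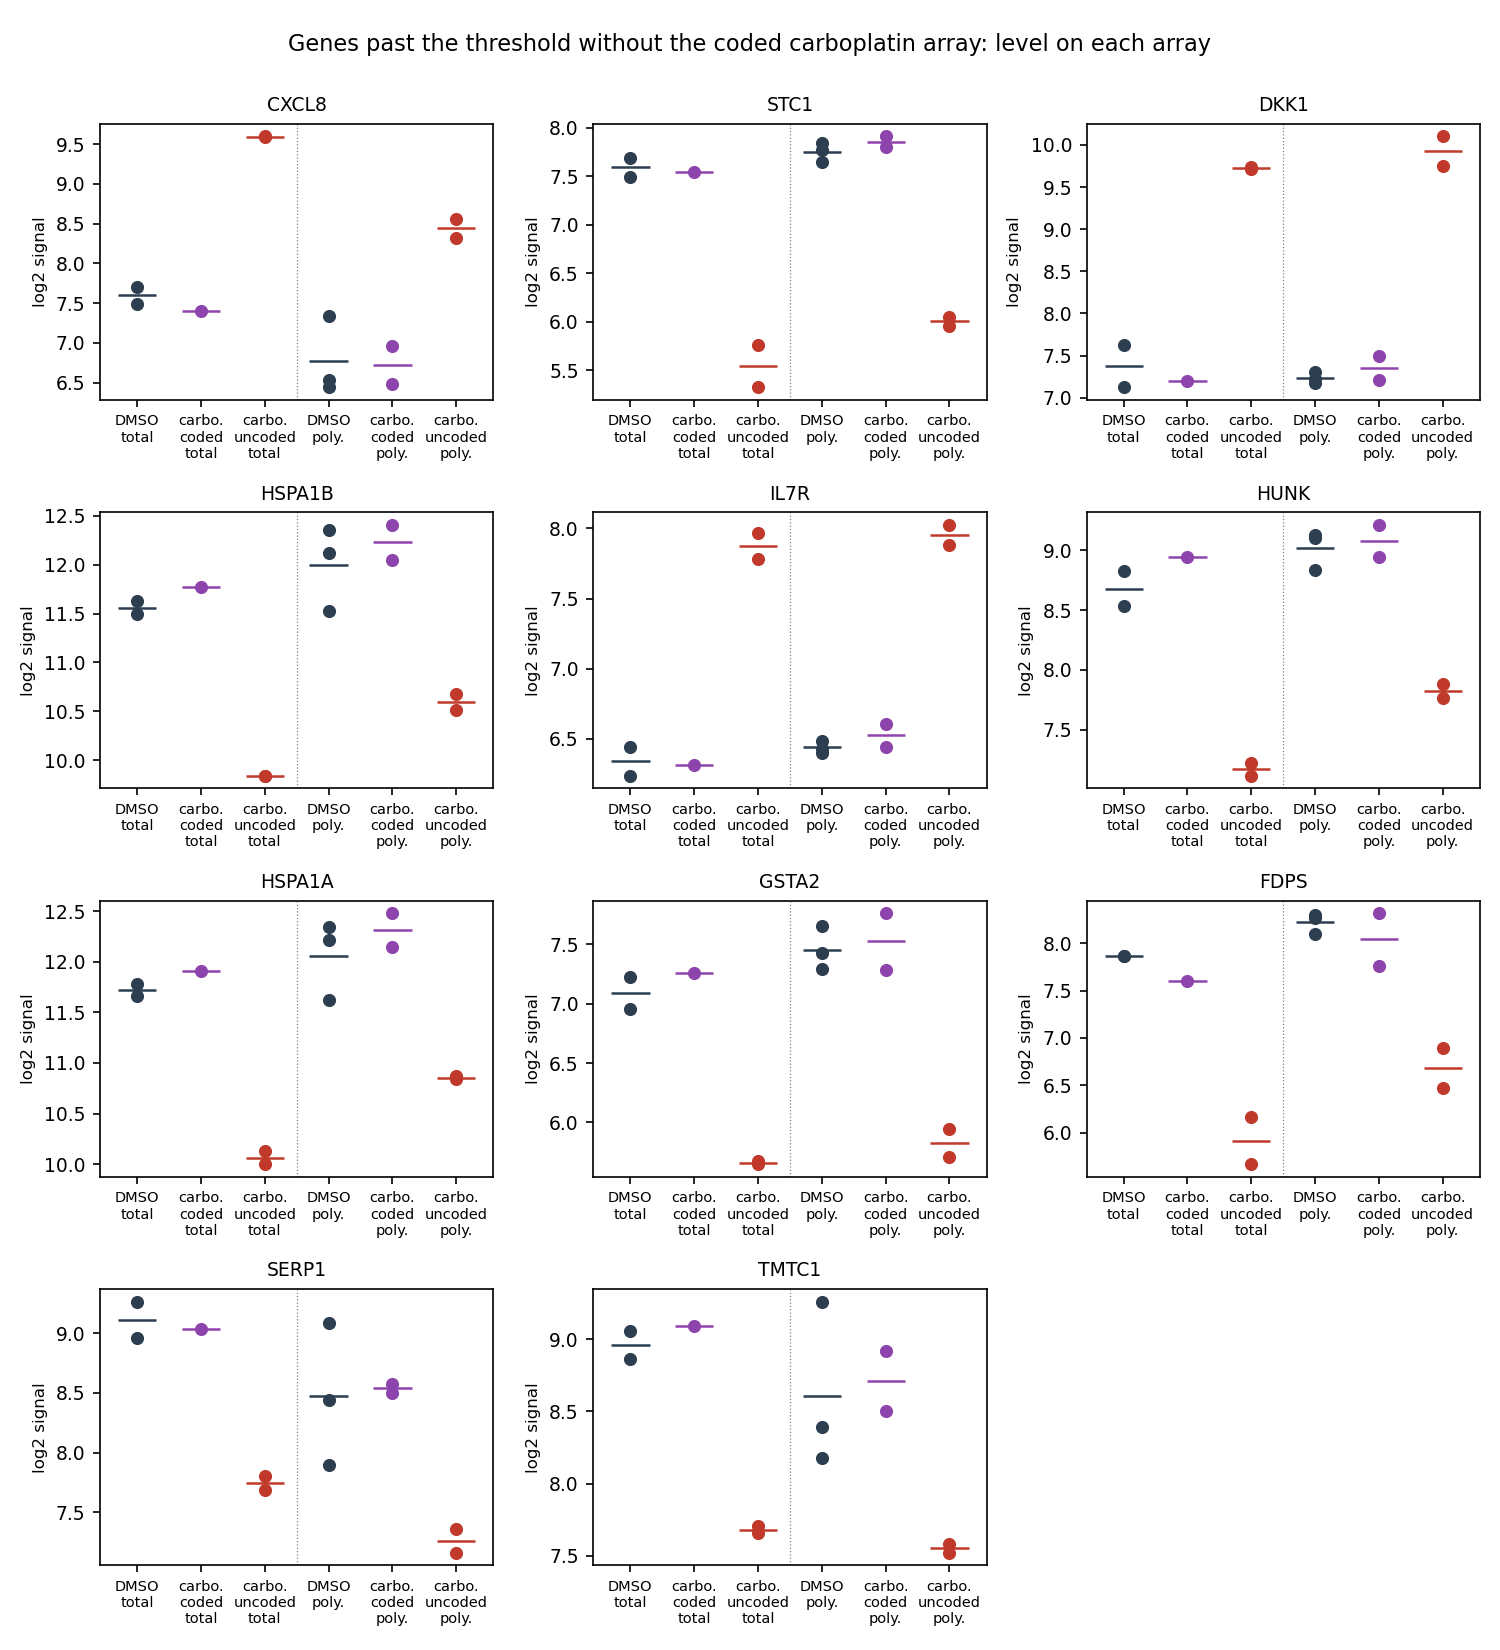
Log2 signal on each array for the 11 genes past an adjusted p of 0.05 without the coded array, by RNA fraction (total on the left of the dotted line, polysome on the right), with a bar at each group's mean. In both fractions the uncoded carboplatin arrays, 2 in each, stand apart from DMSO, and the coded ones, 1 of total and 2 of polysome RNA, lie near DMSO.

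Polysome RNA was measured on separate arrays, of which those compared were DMSO on 3, uncoded carboplatin on 2 and carboplatin labels with a 3-digit code on 2. The array labelled carboplatin polysome 1 was left out, because its values equal a column of combination total RNA in the study's second dataset. The array labelled combination total 1, which the first dataset gives as carboplatin polysome RNA, was not used either. What these choices did to the counts was not tested. Polysome arrays with INK128 and with the combination entered the fit for the spread, 13 arrays in all. The polysome and total RNA of a set came from the same lysates, so these arrays are no independent repeat of the treatment. On the uncoded polysome arrays 236 genes were higher than DMSO (3.17%) and 83 lower (1.12%) at an adjusted p under 0.05, and on the coded ones 0 were called (0%), with 9 at an unadjusted p. The difference between uncoded and coded polysome arrays passed for 213 genes (2.86%), 157 higher and 56 lower. All 11 genes named without the coded total array passed in the same direction on the uncoded polysome arrays, where DKK1 measured 10.10 and 9.75 against 7.31, 7.23 and 7.17 with DMSO and 7.50 and 7.21 on the coded arrays. HSPA1A measured 10.84 and 10.87 there, against 11.63, 12.21 and 12.34 with DMSO and 12.14 and 12.48 on the coded arrays. Treatment, culture and array set cannot be told apart for the codes.

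On the uncoded total arrays 0 of the 21 were called, beside 0.0403% higher and 0.107% lower, and 1 was higher and 2 lower at an unadjusted p, beside 2.75% and 5.83%. On the uncoded polysome arrays SUSD6 was higher by 0.53, with a limma adjusted p of 0.023, and TP53INP1 was lower, with a change of -1.14 and an adjusted p of 0.028. These were 1 of 21 in each direction, beside 3.17% higher and 1.12% lower of all tested genes, and the list median was -0.21. On the coded polysome arrays it was 0.04. Of the NF-kB targets, 5 of 10 were higher on the uncoded polysome arrays, beside 3.17% of all tested genes, among them NFKB1 by 0.87, NFKB2 by 1.18 and LIF, an interleukin-6 family cytokine, by 1.07. Of the immediate early genes 3 of 27 were, beside the same 3.17%, FOSL1 by 1.59, DUSP4 by 0.70 and MYC by 0.65. The plot of list medians sets the 3 readings of the total RNA side by side.

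**Figure D4:**
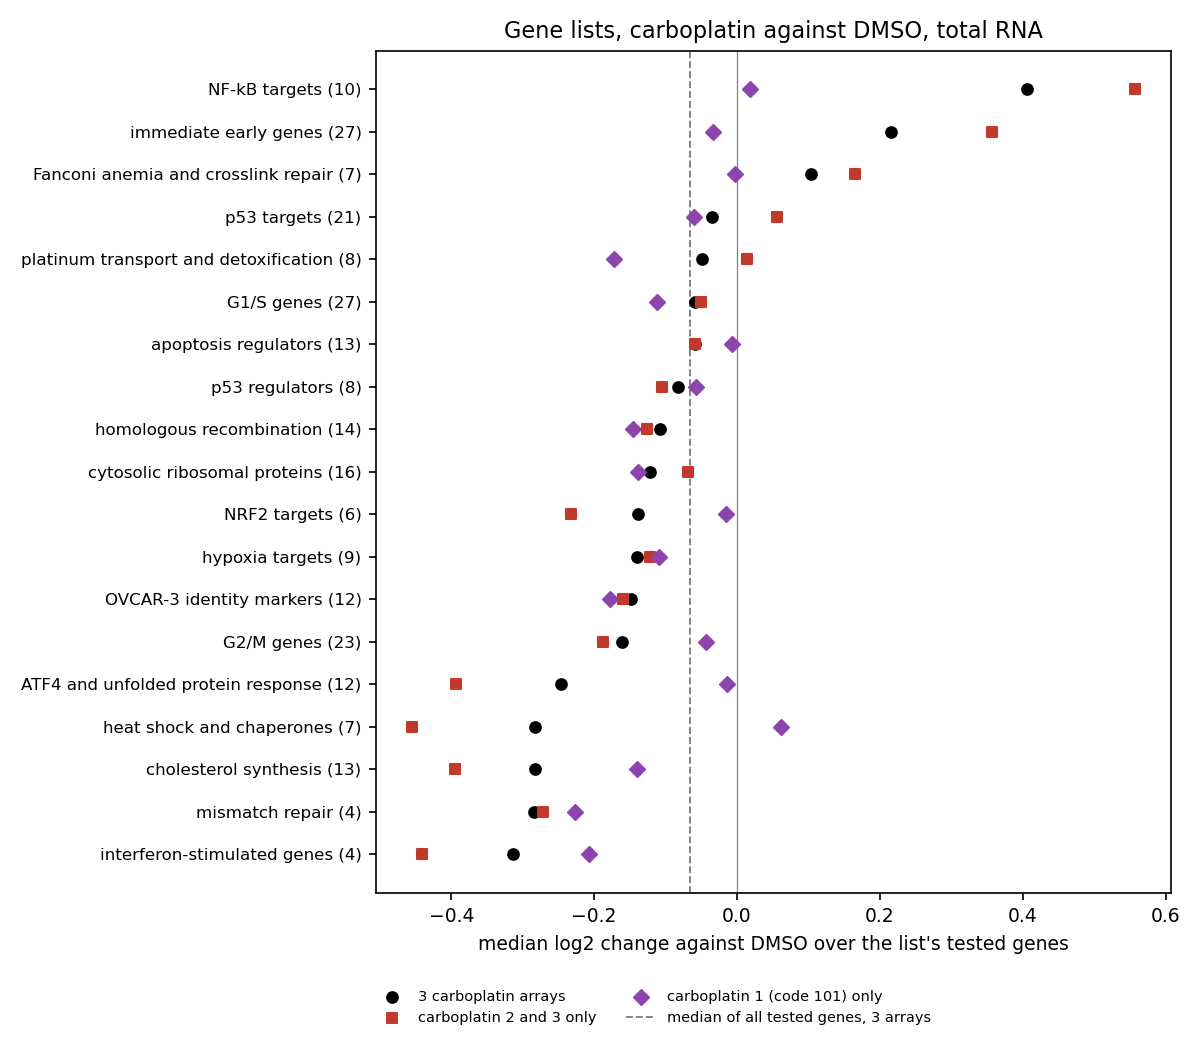
Median log2 change against DMSO of each list with at least 3 tested genes (number tested in brackets), with all 3 carboplatin arrays (black), carboplatin 2 and 3 only (red squares) and the coded array only (violet diamonds), and a dashed line at -0.07, the median of all tested genes. NF-kB targets were highest at 0.41 with 3 arrays and 0.56 without the coded array, while p53 targets lay at -0.04 and 0.06.

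By the study's own first dataset the array labelled combination total 2 is a carboplatin array, since 100% of 527 shared probesets were equal within 0.0001 and the next best array shared 0.190%. It correlated with carboplatin 3 at r = 0.993. Counted as carboplatin beside the other 3 it gave 0 calls, and with the coded array left out, a setting added after the data were examined, it gave 38 higher and 56 lower genes. It measured 9.65 for CXCL8, 9.83 for DKK1 and 10.04 for HSPA1A, close to carboplatin 2 and 3. Within the same fit as the main test, INK128 against DMSO gave 12 calls and 1166 genes at an unadjusted p under 0.05. INK128 was present for 24 h and carboplatin for 5 h, so these counts do not compare the drugs at 1 time.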

How the data were processed

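Total RNA and polysome RNA of OVCAR-3 cells were measured on 24 arrays. The deposited values are log2 signals of 53617 probesets, which the authors background-corrected, normalized and summarized with RMA in Expression Console 1.4.1, per the labels and methods. Normalization to a common distribution hides a change shared by all genes, and the number of arrays limits the precision. Probesets were named from the platform annotation, in which 16098 had exactly 1 symbol, and those with none or with several were left out. Where a gene had several probesets, the brightest on average was used, for 14884 genes in all. The test covered the upper 50% of these by average signal, at or above 6.54 on the log2 scale, which were 7442.

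Carboplatin was compared with DMSO in limma 3.58.1 (R 4.3.3) over 7 arrays of total RNA, 3 with carboplatin, 2 with DMSO and 2 with INK128, with 4 residual degrees of freedom and p adjusted by Benjamini and Hochberg. Polysome arrays were fitted the same way, over 13 arrays, with those of INK128 and of the combination included. The code was tested on simulated data. Arrays, comparison and the 22 gene lists were chosen with earlier results of these data known. Genes were named as the 10 with the smallest p in each direction, the p53 targets, up to 5 members of each other list by p, the platinum genes and the markers of the line, and any others are said to be chosen after their values were seen. Members outside the 5 are given as examples only. Columns of the study's datasets were matched by value to arrays to check labels, and their values were not used otherwise. Promoters were taken from RefSeq (GRCh38.p14) by symbol, and 4 of 4 matched. Alternatives covered the arrays fitted, normalization, filter, probesets, variance model, replicate block and each array left out.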

Additional observations from a re-analysis of the deposited data

Results flagged for a closer look

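The uncoded and coded carboplatin arrays differed from each other for 213 genes in polysome RNA, with 2 arrays on each side, at a limma adjusted p under 0.05. In total RNA the difference passed for 1 gene, CXCL8, but there the coded side is a single array, taken to vary like the other groups. DKK1 differed by 2.57 in polysome RNA (uncoded minus coded) and STC1 by -1.85. What the codes stand for is not given in the sources used here, and their part in the difference was not tested.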

How the results depend on the processing

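The counts of 0 genes at an adjusted p under 0.05 held in all settings tried but these. Without the coded array there were 3 higher and 8 lower, so leaving out 1 array in turn gave 0 to 3 and 0 to 8. With the array labelled combination 2 counted as carboplatin and the coded array left out, added after the data were examined, there were 38 and 56. The 198 genes at an unadjusted p under 0.05 became 331 with only the 5 arrays compared, 109 with all 10 arrays by their labels, 421 with the array labelled combination 2 as carboplatin, 605 with no filter, 65 with a stricter filter, 704 with array weights, 43 to 331 with 1 of the other 6 arrays left out, 639 without the coded array and 983 in the added setting. The 10 genes past the methods' thresholds became 21, with the array labelled combination 2 as carboplatin, 27 with no filter, 0 with a stricter filter, 1 to 12 with 1 of the other 6 arrays left out, 74 without the coded array and 69 in the added setting. Without carboplatin 2 they were 1 and without carboplatin 3 they were 5. The cause was not tested. Carboplatin and DMSO share only 2 replicate numbers, and nothing says that a number marks a shared culture. The study's first dataset numbers these arrays otherwise. With the label's number as a replicate block, 286 genes were at an unadjusted p under 0.05, 8 passed the methods' thresholds and 0 were called. Carboplatin 3 was alone under its number, so it did not enter the change in that fit. The list medians, -0.07 for p53 targets and 0.09 for immediate early genes, equalled those without carboplatin 3. This setting is therefore no test of pairing. The median of p53 targets ranged from -0.09 to 0.08. That of immediate early genes ranged from 0.02, without DMSO 2, to 0.40, without DMSO 1, where the array that stays is taken to vary like the other groups. Each of these values lay within 1 SD between arrays of the reported one, though the whole range of immediate early genes was wider than that SD. Of 1564 values of 77 single genes under these settings, 34 came past the threshold and 0 changed direction, where the direction of 13 genes with a change smaller than its error was not counted. A gene's fitted change cannot move with the filter, the variance trend, the 5 arrays alone or an INK128 array left out, so its direction was fixed there. The 77 include the 11 genes picked because they passed without the coded array, so part of the 34 follows from that choice.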
